A study of Mus musculus with 28 samples.

Results

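Stmn2, Unc13a, Hdac6, Grn, Sort1, Map1b, Rac1 and Atg7 encode mRNAs that are known to depend on the RNA-binding protein TDP-43. They were chosen for that reason by name, and these 8 genes, matched from the gene identifiers to mouse symbols, are described here out of 45513 genes listed for every library. The rule itself uses no measured value. TDP-43 is a mostly nuclear protein that binds UG-rich stretches of RNA, controls splicing and keeps cryptic exons out of mature mRNAs. It forms cytoplasmic inclusions in amyotrophic lateral sclerosis and frontotemporal dementia, and the A315T substitution was found in patients with familial disease. When TDP-43 is lost, STMN2 and UNC13A take in cryptic exons in human neurons, Sort1 changes its exon use, and Hdac6 and Atg7 mRNA levels fall, whereas Map1b and Rac1 have been described as mRNAs whose translation TDP-43 represses. The cells examined here carry more TDP-43 rather than less.

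The study asked whether extra human TDP-43, wild type or A315T, alters translation in neuron-like cells and in neurons, and sequenced ribosome footprints and poly(A)-selected total mRNA from each of 14 cultures, 28 libraries in all. MN1 cells, a clonal hybrid line of mouse spinal motor neurons and neuroblastoma, were transiently transfected with plasmids for GFP (the control), hTDP-43 or hTDP-43 A315T, with 2 cultures each. Primary cortical neurons were prepared from embryonic day 16 mice on a C57BL/6J background, received Ara-C, which removes dividing cells, and were harvested at day in vitro 14. These neurons came from non-transgenic mice (called wild type, 2 cultures), or from hemizygous mice that carry human wild-type TARDBP (3 cultures) or TARDBP A315T (3 cultures) under the prion promoter. By the labels, wild type has no culture of the first neuron date, which both transgenic groups have. Comparisons with wild type are therefore unbalanced by date. The endogenous mouse Tardbp gene is intact in every group, and the TDP-43 groups differ from their controls by an added human gene. In MN1 cells the paper reports that transfection lowered the endogenous protein, so that total TDP-43 rose only modestly. In neurons it reports somewhat more A315T than wild-type human protein, so these groups are not matched in dose. In MN1 cells the plasmid uses a CMV promoter, reaches only the transfected share of the cells and adds FLAG and V5 tags. For neurons the paper names the A315T protein with a Flag tag and the wild-type human protein without one. It cites a separate report for each mouse line, so tag and line also differ between these groups. Cycloheximide was given before lysis to MN1 cells alone, so cell type and this treatment cannot be told apart.

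Levels are given as CPM, the usual unit of a gene's count relative to the total of its library, scaled over all 28 libraries by the trimmed mean of M values (TMM). Library totals ran from 332370 to 1219222 reads for MN1 footprints, 1328528 to 2988339 for MN1 total mRNA, 166064 to 2528820 for neuron footprints and 600385 to 6969578 for neuron total mRNA. A count of 3, taken as the detection floor, corresponds to 2.39 to 7.16 CPM in MN1 footprints but to as much as 20.6 CPM in the shallowest neuron footprint library. The cells carried the markers of their labels in part. Summed over 5 pan-neuronal markers, total mRNA was 394 to 508 CPM in MN1 cells and 3064 to 3523 CPM in neurons. A sum over 3 proliferation markers was 255 to 432 CPM in MN1 total mRNA and 2.29 to 7.00 CPM in neurons, and the 4 motor neuron markers summed to 46.7 to 64.9 CPM and 3.30 to 9.37 CPM. The neuron cultures also held astrocyte mRNA, with 39.9 to 101 CPM over 4 markers against 0 to 2.12 CPM in MN1 cells. In such bulk libraries, fewer cells of a type and less RNA per cell cannot be told apart. In neurons, 3 cultures stood apart: the hTDP-43 footprint libraries of replicates 2 and 3 were shallow, and Lars2 took 18.8% and 14.2% of the total mRNA reads in wild-type replicate 3 and hTDP-43 replicate 3, against 3.09% to 7.49% in the other 6 neuron libraries. Their values are therefore also given apart where they bear on a result.

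TDP-43 recognises runs of UG dinucleotides, which read as TG on the coding strand of the genome. Each of the 8 genes holds at least 1 uninterrupted run of 6 or more TG units within its transcribed span. Such a run is common and is found in 63.2% of 21488 protein-coding genes, where the longest run has a median of 13 units. Of the longest runs in each gene, shown next to make these stretches visible, all lie in introns. Each line gives the 10 bases before the run in lower case and up to the first 20 bases of the run in capitals, 5′ to 3′ on the gene's strand, with the position of the printed window in GRCm38.
Stmn2, chr3:8539043-8539072, plus strand: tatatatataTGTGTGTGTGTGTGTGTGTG
Atg7, chr6:114703768-114703797, plus strand: gatatagaagTGTGTGTGTGTGTGTGTGTG
Map1b, chr13:99500617-99500646, minus strand: aggaaaactcTGTGTGTGTGTGTGTGTGTG
Hdac6, chrX:7935462-7935491, minus strand: gccaatggcgTGTGTGTGTGTGTGTGTGTG
Rac1, chr5:143511243-143511272, minus strand: ccagatactcTGTGTGTGTGTGTGTGTGTG
Unc13a, chr8:71636910-71636939, minus strand: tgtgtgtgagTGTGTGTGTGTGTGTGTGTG
Grn, chr11:102433372-102433399, plus strand: ggagttggggTGTGTGTGTGTGTGTGTG
Sort1, chr3:108353218-108353241, plus strand: gtgtgtggggTGTGTGTGTGTGTG
The whole runs extend over 27 units in Stmn2, 26 in Atg7, 25 in Map1b, 23 in Hdac6, 18 in Rac1, 16 in Unc13a, 9 in Grn and 7 in Sort1. Among coding genes, 8.48% hold a run at least as long as that of Stmn2, whereas 60.2% do so for the run of Sort1. Atg7, the longest gene of the set, has 31 runs, and the other members have 2 to 7. A run in an exon was found in 2 of the 8 members, and in 11.2% of all coding genes.
Unc13a, chr8:71628395-71628416, minus strand, 3′ untranslated region: cctctgcacaTGTGTGTGTGTG
Grn, chr11:102436743-102436764, plus strand, 3′ untranslated region of 1 transcript and coding in 1 other: tgagcttgctTGTGTGTGTGTG
Both exonic runs have 6 units. A match of letters is a description and does not show that TDP-43 binds there.

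Across genotypes, no member was called in any comparison of all cultures. Since hardly any gene was called in these comparisons, this does not show that the members are unchanged. The edgeR quasi-likelihood test was applied to 12 pairwise genotype comparisons, 6 comparisons of translational efficiency (the change in footprints beyond the change in total mRNA) and 2 comparisons of the A315T effect between the cell types. This gave 156 tests of members, of which 0 passed an adjusted p of 0.05, with log2 fold changes from -0.87 to 0.84 and adjusted p-values from 0.85 to 1. By the unadjusted p, 1 test was under 0.05, and DESeq2 also called 0 members, again with 1 unadjusted p under 0.05. The background was equally low. Over all genes tested, 0.0115% were called for A315T against GFP in MN1 footprints, 0.00965% for A315T against GFP and 0.0100% for hTDP-43 against GFP in MN1 total mRNA, and 0% in each of the other 17 genotype comparisons. Replicate numbers share a culture date, taking 1 label with a later year as the same date, and with the date as a replicate block the share called for A315T against GFP in MN1 cells rose to 0.624% (footprints) and 2.73% (total mRNA), and to 0.0841% and 0.293% in neuron footprints and total mRNA for A315T against wild type. For translational efficiency, and for footprints against total mRNA, the replicate block was instead the culture, which pairs its footprint and total mRNA libraries. With these blocks 0 of the 156 member tests passed, with a lowest adjusted p of 0.334 and 6 unadjusted p-values under 0.05. The log2 fold changes of members with the block ran from -0.86 to 0.85. Unless the block is named, the estimates and intervals below are from the fit without it, which ignores date. Where footprints and total mRNA are compared, that fit also ignores that both libraries come from the same culture. Only 1 change of setting gave calls among members, and it is described with Map1b and Grn.

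Tardbp (ENSMUSG00000041459, chr4:148612382-148627019, GRCm38, minus strand), the mouse counterpart of the added gene, differed by culture type. In MN1 total mRNA it measured 239 and 218 CPM with GFP, 405 and 340 CPM with hTDP-43, and 413 and 372 CPM with A315T, so that both TDP-43 groups lay above the controls. The log2 fold changes were 0.72 for hTDP-43 (95% confidence interval 0.37 to 1.08, adjusted p = 1) and 0.71 for A315T (0.41 to 1.01, adjusted p = 0.849). With the replicate block their adjusted p-values were 2.63e-15 and 1.13e-05. In neuron total mRNA it ran from 60.7 to 115 CPM with overlapping groups, and the log2 fold change of A315T against wild type was -0.26 (-0.93 to 0.41, adjusted p = 1). Human transgene reads may have been aligned to the mouse gene, which was not tested, so these values do not measure the amount of human TDP-43. Nor do they measure the endogenous protein, which the paper reports to be lower in transfected MN1 cells.

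The cell types, in contrast, separated the members. In total mRNA 8 of 8 members differed between neurons and MN1 cells, 6 higher and 2 lower in neurons, where 81.0% of all genes tested were called. In footprints 7 of 8 differed, 5 higher and 2 lower, against a background of 82.6%. With the control cultures alone (GFP against wild type), 4 members were called in total mRNA (Map1b, Sort1, Stmn2 and Unc13a) and 6 in footprints, where the shares over all genes were 53.5% and 70.9%. Shares with such a background say nothing particular of the members, and their values are given gene by gene. Footprints were also compared with total mRNA within each cell type. In MN1 cells 4 of 8 members differed, 3 with more and 1 with fewer footprints than total mRNA, against 57.4% of all genes. In neurons 5 of 8 differed, all with more footprints. Over all genes 54.0% were called in either direction and 26.6% had more footprints. Without hTDP-43 replicate 1, 3 of 8 members differed. Translational efficiency differed between the cell types for 1 member, Unc13a, where 8.07% of genes were called. Total mRNA was selected for poly(A) and footprints were not, so a footprint to total mRNA difference also holds that step. Counts are over whole exons, and the coding part of the exon bases runs from 9.6% in Stmn2 and 14.1% in Rac1 to 59.3% in Hdac6 and 62% in Grn (median of coding genes 40.4%). Footprint levels per length are therefore not levels per coding length.

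**Figure D1:**
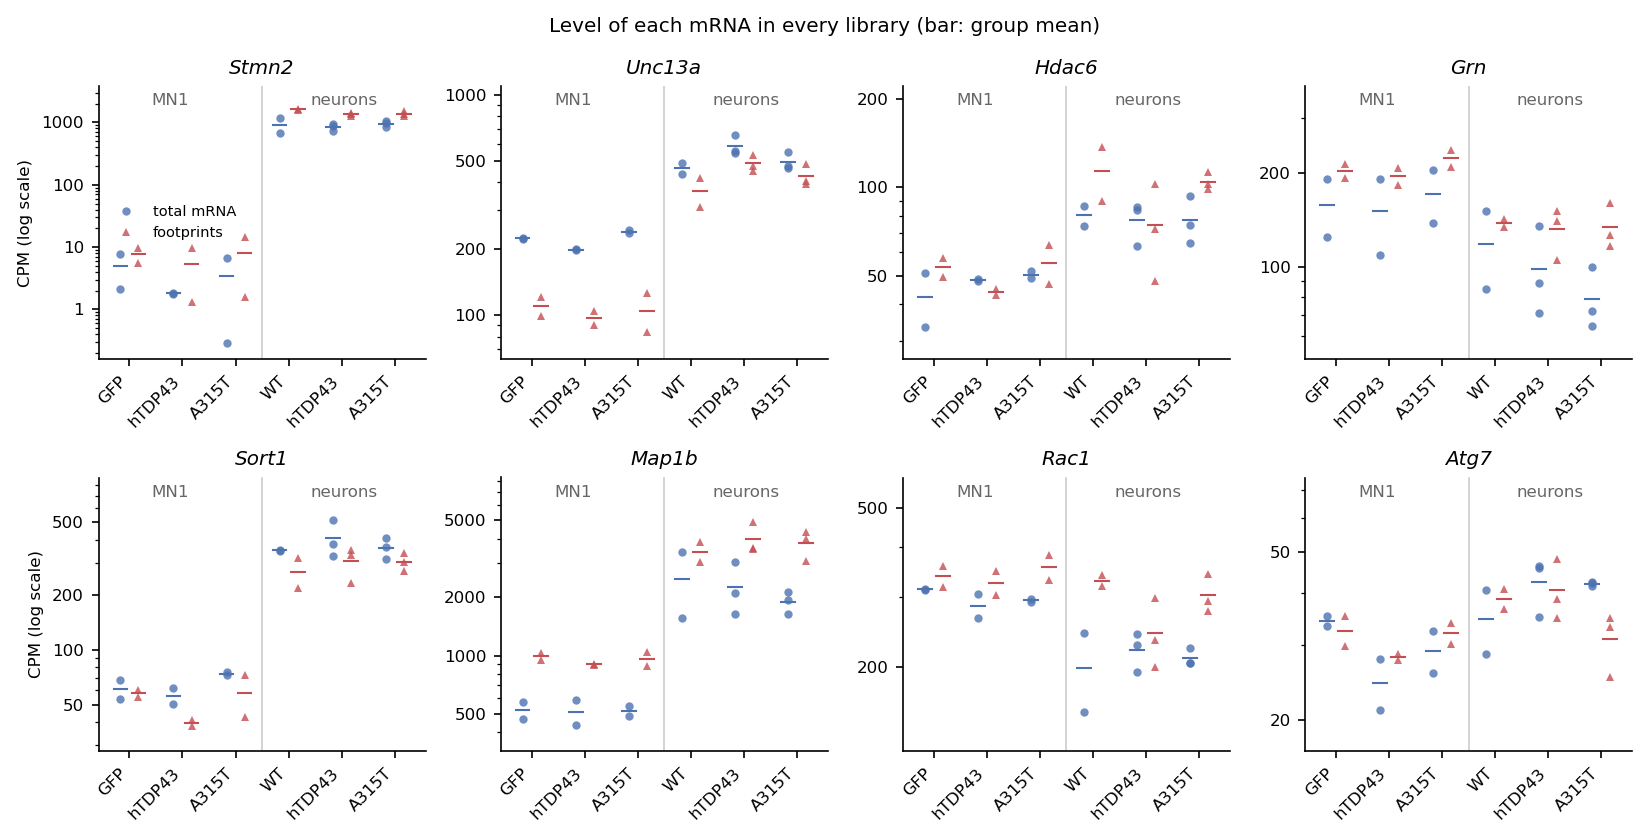
Level of each of the 8 mRNAs in every library, in CPM on a log scale, for the 3 transfections of MN1 cells and the 3 genotypes of neurons. Blue circles are total mRNA, red triangles are footprints and bars are group means. Stmn2 lies at 0.293 to 14.5 CPM in MN1 cells and at 673 to 1664 CPM in neurons, and no comparison of genotypes within a cell type passed the test.

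Stmn2 (ENSMUSG00000027500, chr3:8509360-8561606, GRCm38, plus strand) encodes stathmin-2, a neuronal protein that binds tubulin and maintains axons. Its longest TG run is printed above. In MN1 cells it was barely present. Total mRNA measured 2.12 and 7.74 CPM with GFP, 1.83 and 1.78 CPM with hTDP-43, and 0.293 and 6.67 CPM with A315T. Footprints measured 5.61 and 9.76 CPM with GFP, 1.32 and 9.54 CPM with hTDP-43, and 1.59 and 14.5 CPM with A315T. These values rest on 1 to 22 reads per library, and 4 of 12 MN1 libraries had 3 reads or fewer. The scatter within a group was thus as wide as any difference between groups. In neurons total mRNA was 1172 and 673 CPM in wild-type cultures, 937, 893 and 740 CPM in hTDP-43 cultures, and 850, 978 and 1038 CPM in A315T cultures. The values 673 and 740 CPM belong to the Lars2-rich replicate 3 libraries of wild type and hTDP-43, and the other 6 ranged from 850 to 1172 CPM. Footprints were higher in every neuron culture than total mRNA, with 1664 and 1612 CPM in wild type, 1381, 1406 and 1275 CPM with hTDP-43, and 1286, 1371 and 1518 CPM with A315T. The 2 wild-type footprint values lay above all 6 transgenic ones.

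For Stmn2 the log2 fold change of A315T against wild type was -0.24 in footprints (-0.59 to 0.11) and 0.04 in total mRNA (-0.63 to 0.71), neither of which passed. In MN1 cells the intervals were far wider, with -0.29 in footprints (-2.14 to 1.56) and -0.87 in total mRNA (-3.05 to 1.31). Stmn2 did not pass the filter on low counts for the remaining MN1 comparisons with hTDP-43, in either library type. Neurons had 278 times the MN1 level of Stmn2 total mRNA (149 to 521, log2 fold change 8.12, adjusted p = 1.23e-10), and 212 times the footprints (log2 fold change 7.73, adjusted p = 1.16e-16). Its footprints exceeded total mRNA in neurons by 0.72 on the log2 scale (0.46 to 0.98, adjusted p = 0.00011). In MN1 cells the difference was 1.09 (-0.47 to 2.65, adjusted p = 0.226). With the replicate block, here the culture, the MN1 value was 1.22 with an adjusted p of 0.0261.

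Map1b (ENSMUSG00000052727, chr13:99421464-99516602, GRCm38, minus strand) encodes a microtubule-associated protein of growing axons and is the TDP-43 target whose translation is repressed through FMRP in earlier work. It was among the most abundant mRNAs of neurons, above 99.2% of coding genes per kilobase in total mRNA. MN1 total mRNA was 575 and 470 CPM with GFP, 591 and 436 CPM with hTDP-43, and 551 and 487 CPM with A315T. MN1 footprints were 1035 and 950 CPM with GFP, 898 and 906 CPM with hTDP-43, and 1043 and 887 CPM with A315T, above the total mRNA in every culture. Within MN1 total mRNA the 3 cultures of replicate 1 (551 to 591 CPM) lay above the 3 of replicate 2 (436 to 487 CPM) whatever the plasmid. The log2 fold change of A315T against GFP was -0.05 in footprints (-0.45 to 0.35) and -0.08 in total mRNA (-0.42 to 0.25).

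In neurons Map1b total mRNA measured 1557 and 3420 CPM in wild type, 2103, 1632 and 3029 CPM with hTDP-43, and 2124, 1634 and 1937 CPM with A315T. The values 3420 and 3029 CPM belong to the replicate 3 libraries of wild type and hTDP-43 that hold the large Lars2 share, and the other 6 libraries ranged from 1557 to 2124 CPM. Footprints were 3845 and 3040 CPM in wild type, 4919, 3592 and 3572 CPM with hTDP-43, and 4350, 3084 and 4002 CPM with A315T, and did not show this split. The log2 fold change of A315T against wild type was 0.14 in footprints (-0.27 to 0.54) and -0.40 in total mRNA (-1.23 to 0.43). Without wild-type replicate 2, which leaves replicate 3 as the lone wild-type library, the total mRNA value became -0.83 with an adjusted p of 0.0346. The part of the Lars2-rich library in that call was not tested. Map1b was 4.03 times higher in neurons than in MN1 cells in total mRNA (log2 fold change 2.01, 1.60 to 2.42, adjusted p = 3.25e-07), and its footprints were higher by 1.79 on the log2 scale (1.55 to 2.04, adjusted p = 1.13e-11). Footprints exceeded total mRNA by 1.02 in MN1 cells (0.81 to 1.23, adjusted p = 1.15e-06) and by 0.82 in neurons (0.47 to 1.17, adjusted p = 0.000511). The log2 ratios of the Lars2-rich cultures of wild type and hTDP-43 were -0.17 and 0.24, against 0.92 to 1.30 in the other 6 neuron cultures, and without the 3 cultures that stood apart the neuron difference was 1.18 (adjusted p = 4.33e-05).

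Hdac6 (ENSMUSG00000031161, chrX:7930120-7947889, GRCm38, minus strand) encodes a cytoplasmic deacetylase that acts on tubulin and takes part in the clearance of aggregates. MN1 total mRNA was 33.4 and 51.0 CPM with GFP, 48.6 and 48.0 CPM with hTDP-43, and 51.8 and 48.9 CPM with A315T. The single low value belongs to GFP replicate 1, and the other 5 cultures lay between 48.0 and 51.8 CPM. MN1 footprints ran from 42.9 to 63.8 CPM over the 3 groups, which overlapped. In neurons total mRNA was 86.7 and 74.0 CPM in wild type, 85.9, 83.5 and 63.0 CPM with hTDP-43, and 64.8, 74.3 and 93.3 CPM with A315T. The log2 fold change of A315T against its control was 0.06 in MN1 footprints (-0.45 to 0.57), 0.17 in MN1 total mRNA (-0.32 to 0.66), -0.09 in neuron footprints (-0.57 to 0.39) and -0.06 in neuron total mRNA (-0.65 to 0.52). Neurons held more Hdac6 than MN1 cells, by 0.68 on the log2 scale in total mRNA (0.38 to 0.98, adjusted p = 0.000447) and by 0.78 in footprints (0.47 to 1.10, adjusted p = 6.33e-05). Neuron footprints exceeded total mRNA by 0.37 (0.05 to 0.68, adjusted p = 0.0472), a call that was lost on leaving out any culture but wild-type replicate 2 (0.15 to 0.40, adjusted p = 0.0593 to 0.452) with DESeq2 (0.30, adjusted p = 0.123) and without the 3 cultures that stood apart (0.26, adjusted p = 0.177). In MN1 cells the difference was 0.26 (-0.02 to 0.54, adjusted p = 0.108).

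Unc13a (ENSMUSG00000034799, chr8:71624417-71671757, GRCm38, minus strand) encodes Munc13-1, which prepares synaptic vesicles for release. It was the member whose footprints and total mRNA were related differently in MN1 cells and neurons. MN1 total mRNA was 223 and 225 CPM with GFP, 199 and 197 CPM with hTDP-43, and 242 and 236 CPM with A315T. The pairs were tight, and the hTDP-43 pair was lowest and the A315T pair highest. MN1 footprints were lower, with 121 and 99.6 CPM for GFP, 104 and 90.6 CPM for hTDP-43, and 126 and 84.0 CPM for A315T, and here the groups overlapped. In neurons total mRNA measured 492 and 437 CPM in wild type, 541, 555 and 658 CPM with hTDP-43, and 549, 463 and 473 CPM with A315T. Neuron footprints measured 421 and 309 CPM in wild type, 534, 476 and 453 CPM with hTDP-43, and 483, 407 and 392 CPM with A315T. In both library types the hTDP-43 neurons lay above the wild-type neurons without overlap. Most of these cultures are those that stood apart. Wild-type replicate 3 gave the lowest values (437 and 309 CPM), and hTDP-43 replicate 3 the highest total mRNA (658 CPM). The shallow footprint libraries of hTDP-43 replicates 2 and 3 held 86 and 66 reads of Unc13a.

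That footprint difference of hTDP-43 against wild-type neurons was the single unadjusted p under 0.05 among the members, with a log2 fold change of 0.45 for Unc13a (0.06 to 0.83, adjusted p = 0.915). It did not pass, and 0% of genes were called in that comparison. For A315T against the control the log2 fold change was -0.06 in MN1 footprints (-0.52 to 0.39), 0.02 in MN1 total mRNA (-0.26 to 0.30), 0.22 in neuron footprints (-0.16 to 0.59) and 0.08 in neuron total mRNA (-0.41 to 0.58).

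Between cell types Unc13a total mRNA was 2.22 times higher in neurons (log2 fold change 1.15, 0.93 to 1.37, adjusted p = 1.15e-07), and its footprints rose further, by 1.84 (1.59 to 2.08, adjusted p = 6.56e-12). In MN1 cells footprints fell below total mRNA by 0.92 on the log2 scale (log2 difference -0.92, -1.13 to -0.71, adjusted p = 2.32e-06). In neurons the difference was -0.23 (-0.45 to -0.01, adjusted p = 0.0727), which passed with DESeq2 (-0.29, adjusted p = 0.0168) and without hTDP-43 replicate 3 (adjusted p = 0.0373) or wild-type replicate 2 (adjusted p = 0.0353). The log2 ratio of footprint to total mRNA CPM ran from -1.49 to -0.88 over the 6 MN1 cultures (median -1.03) and from -0.54 to -0.02 over the 8 neuron cultures (median -0.22), with no overlap. Translational efficiency of Unc13a was thus higher in neurons by 0.80 (0.46 to 1.14, adjusted p = 0.00381), where the median over all genes was 0.20 (-0.02 with the size factors of DESeq2). The call was lost on leaving out MN1 hTDP-43 replicate 1 (0.61, adjusted p = 0.166). In this comparison 73.6% of calls were in favour of neurons, but 31.0% with the size factors of DESeq2, under which Unc13a still differed (0.58, adjusted p = 0.0286). The other 7 members had translational efficiency differences from -0.27 (Stmn2, -1.48 to 0.95) to 0.28 (Rac1), with adjusted p-values from 0.324 to 1. Of the exon bases of Unc13a, 3.9% are shared with Colgalt1, and the counting did not use strand.

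**Figure D2:**
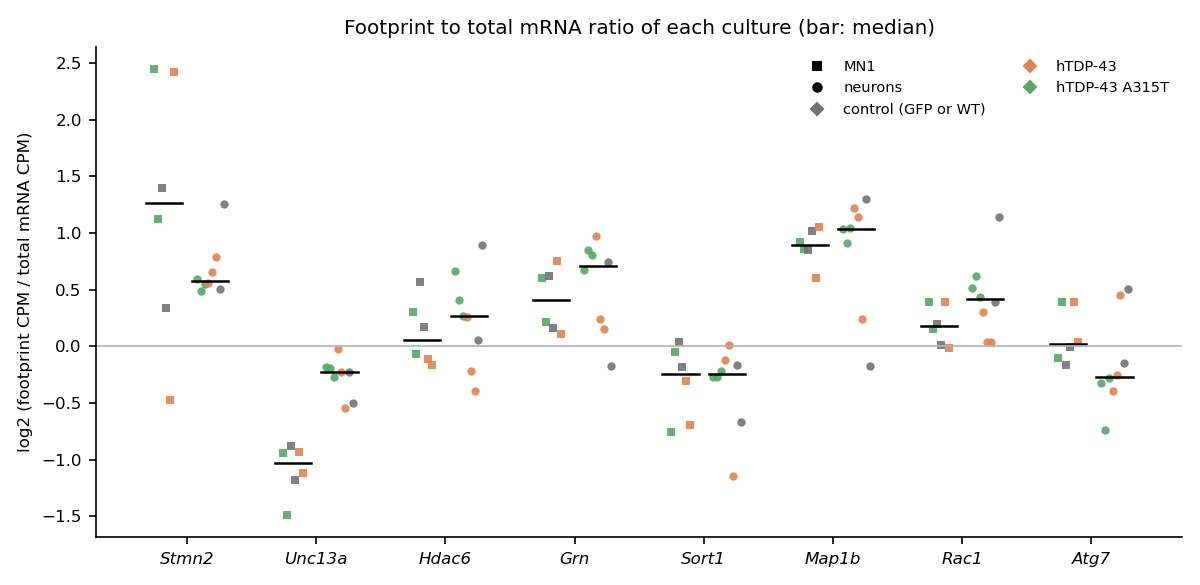
Log2 ratio of footprint CPM to total mRNA CPM for each of the 8 members in every culture, with squares for the 6 MN1 cultures, circles for the 8 neuron cultures and bars for the medians. For Unc13a the MN1 cultures lie between -1.49 and -0.88 and the neuron cultures between -0.54 and -0.02, whereas the cell types overlap for the other members.

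Grn (ENSMUSG00000034708, chr11:102430315-102437048, GRCm38, plus strand) encodes progranulin, a secreted and lysosomal growth factor whose loss causes frontotemporal dementia with TDP-43 inclusions. MN1 total mRNA was 125 and 191 CPM with GFP, 109 and 192 CPM with hTDP-43, and 138 and 205 CPM with A315T. Replicate 1 lay at 109 to 138 CPM and replicate 2 at 191 to 205 CPM, so culture date separated these values and plasmid did not. MN1 footprints were 192 and 214 CPM with GFP, 184 and 208 CPM with hTDP-43, and 210 and 237 CPM with A315T. In neurons total mRNA measured 84.9 and 151 CPM in wild type, 71.1, 89.0 and 135 CPM with hTDP-43, and 99.9, 64.8 and 72.1 CPM with A315T. As for Map1b, the Lars2-rich replicate 3 libraries of wild type and hTDP-43 were highest (135 to 151 CPM, against 64.8 to 99.9 CPM in the other 6).

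For Grn the log2 fold change of A315T against its control was 0.13 in MN1 footprints (-0.28 to 0.54), 0.03 in MN1 total mRNA (-0.47 to 0.54), -0.03 in neuron footprints (-0.41 to 0.36) and -0.58 in neuron total mRNA (-1.33 to 0.16). The last value became -0.91 with an adjusted p of 0.0435 without wild-type replicate 2, the same setting that gave the call for Map1b. Grn was lower in neurons than in MN1 cells, with a log2 fold change of -0.81 in total mRNA (-1.25 to -0.37, adjusted p = 0.00203) and -0.79 in footprints (-1.01 to -0.56, adjusted p = 8.85e-07). Markers of microglia, which express Grn strongly, summed over 4 genes to at most 9.36 CPM in MN1 cells and 3.88 CPM in neurons. MN1 is a clonal line, so its marker reads do not measure microglia. Footprints exceeded total mRNA by 0.52 in MN1 cells (0.17 to 0.86, adjusted p = 0.0137) and by 0.54 in neurons (0.21 to 0.88, adjusted p = 0.00868). The neuron call was lost without hTDP-43 replicate 1 (adjusted p = 0.0529) or without wild-type replicate 2 (adjusted p = 0.0989). Without the 3 cultures that stood apart it held, at 0.84 (adjusted p = 0.00131).

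Sort1 (ENSMUSG00000068747, chr3:108284082-108361511, GRCm38, plus strand) encodes sortilin, a Vps10-domain receptor that binds progranulin and carries it to lysosomes. Ligand and receptor went in opposite directions between the cell types. Sort1 total mRNA was 53.6 and 68.6 CPM in MN1 cells with GFP, 50.4 and 61.6 CPM with hTDP-43, and 72.9 and 75.2 CPM with A315T. In neurons it was 355 and 349 CPM in wild type, 381, 329 and 516 CPM with hTDP-43, and 411, 366 and 314 CPM with A315T. Neurons held 5.61 times more (log2 fold change 2.49, 2.21 to 2.76, adjusted p = 3.47e-10), and footprints followed (2.37, 2.07 to 2.67, adjusted p = 1.35e-12). Although both A315T values in MN1 total mRNA lay above the GFP values, the log2 fold change was 0.20 (-0.20 to 0.59) and did not pass. In MN1 footprints it was -0.08 (-0.70 to 0.55), in neuron footprints 0.16 (-0.23 to 0.56) and in neuron total mRNA 0.04 (-0.47 to 0.54).

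Footprints of Sort1 differed from total mRNA by -0.30 on the log2 scale in neurons (-0.56 to -0.04, adjusted p = 0.0509) and by -0.19 in MN1 cells (-0.51 to 0.13, adjusted p = 0.296). The neuron value sits at the threshold. It passed with the replicate block (adjusted p = 0.0488), with DESeq2 size factors (-0.37, adjusted p = 0.0207), with DESeq2 (-0.36, adjusted p = 0.0157), and without hTDP-43 replicate 2, hTDP-43 replicate 3 or wild-type replicate 2 (adjusted p = 0.0369, 0.0398 and 0.0217).

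Rac1 (ENSMUSG00000001847, chr5:143503634-143528036, GRCm38, minus strand) encodes a small GTPase that shapes the actin cytoskeleton and dendritic spines. MN1 total mRNA was 312 and 314 CPM with GFP, 265 and 305 CPM with hTDP-43, and 291 and 296 CPM with A315T. Neuron total mRNA was lower, with 243 and 154 CPM in wild type, 242, 193 and 226 CPM with hTDP-43, and 204, 223 and 204 CPM with A315T. The log2 fold change between neurons and MN1 cells was -0.57 in total mRNA (-0.83 to -0.31, adjusted p = 0.000466) and -0.40 in footprints (-0.63 to -0.17, adjusted p = 0.0021). The footprint call was lost with the control cultures alone (-0.15, adjusted p = 0.559), without the 3 cultures that stood apart (adjusted p = 0.0816), with no filter on low counts (adjusted p = 0.0555), and without MN1 A315T replicate 1 (adjusted p = 0.0899), MN1 GFP replicate 1 (adjusted p = 0.0546) or neuron A315T replicate 3 (adjusted p = 0.0511). A315T against its control gave 0.06 in MN1 footprints (-0.32 to 0.45), -0.17 in MN1 total mRNA (-0.44 to 0.11), -0.13 in neuron footprints (-0.49 to 0.22) and 0.07 in neuron total mRNA (-0.51 to 0.65). Footprints exceeded total mRNA in MN1 cells by 0.34 (0.16 to 0.52, adjusted p = 0.00326) and in neurons by 0.52 (0.26 to 0.77, adjusted p = 0.00161), and the MN1 call was lost with no filter (0.24, adjusted p = 0.0835). Of the exon bases of Rac1, 51.4% overlap Daglb on the opposite strand, and reads from the genes cannot be told apart there. The overlap spans 2309 bases and the coding part of Rac1 only 633, so the overlap reaches beyond the coding sequence. It may thus enter footprints and total mRNA unequally, and its part in their differences was not tested.

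Atg7 (ENSMUSG00000030314, chr6:114643097-114860614, GRCm38, plus strand) encodes the enzyme that activates the ubiquitin-like proteins of autophagy. It was the least abundant member in neurons and varied little. Total mRNA ran from 21.1 to 35.2 CPM over the 6 MN1 cultures (median 30.2) and from 28.6 to 46.2 CPM over the 8 neuron cultures (median 41.9). The lowest neuron values, 28.6 and 35.0 CPM, belong to the Lars2-rich libraries, and the other 6 lay between 40.6 and 46.2 CPM. Footprints ran from 27.7 to 35.2 CPM in MN1 cells and from 25.3 to 48.0 CPM in neurons, on as few as 7 reads. Total mRNA was 1.31 times higher in neurons (log2 fold change 0.39, 0.08 to 0.69, adjusted p = 0.0215), a call lost without any 1 of 4 cultures (MN1 A315T replicate 2, MN1 GFP replicate 1, MN1 hTDP-43 replicate 1 or wild-type neuron replicate 2, with adjusted p-values from 0.0572 to 0.0876), and footprints gave 0.03 (-0.31 to 0.37, adjusted p = 0.934). A315T against its control gave -0.06 in MN1 footprints (-0.68 to 0.57), -0.30 in MN1 total mRNA (-0.78 to 0.19), -0.26 in neuron footprints (-0.84 to 0.31) and 0.26 in neuron total mRNA (-0.33 to 0.86). Footprints differed from total mRNA by 0.22 in MN1 cells (-0.10 to 0.54, adjusted p = 0.227) and by -0.11 in neurons (-0.42 to 0.19, adjusted p = 0.535).

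**Figure D3:**
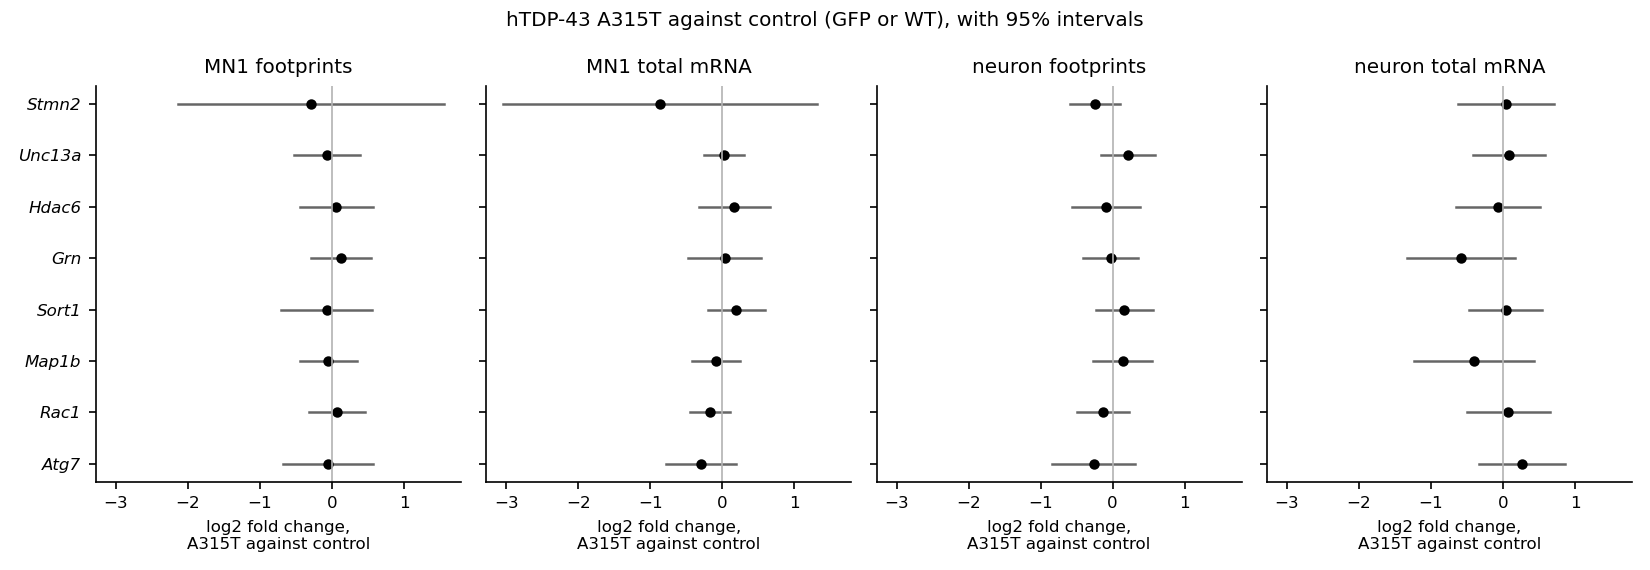
Log2 fold change of A315T against the control for each of the 8 members, with GFP as the control in MN1 cells and wild type in neurons, for footprints and total mRNA. Points are edgeR estimates without the replicate block, lines are 95% confidence intervals, and every interval includes 0. The widest belong to Stmn2 in MN1 cells (-3.05 to 1.31 in total mRNA).

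**Figure D4:**
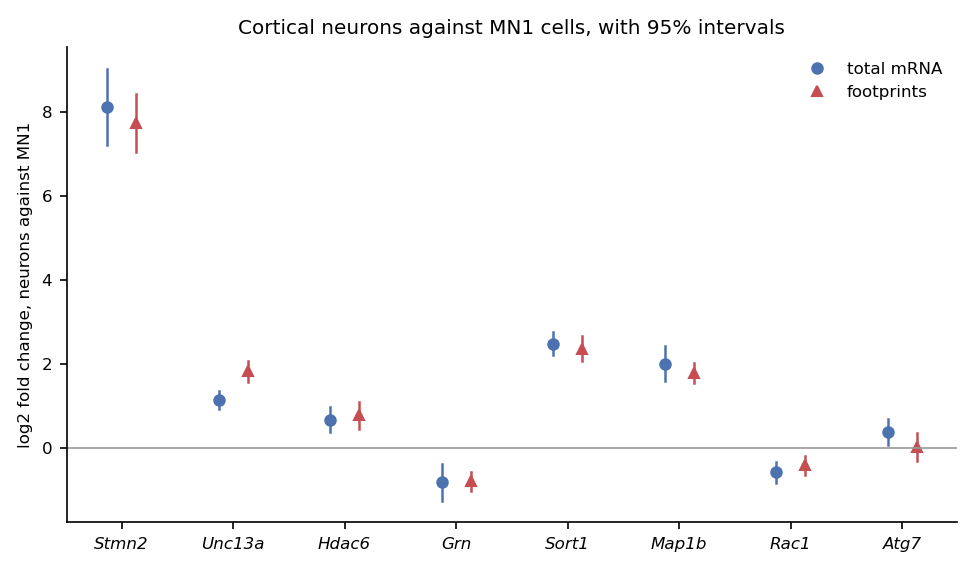
Log2 fold change of neurons against MN1 cells for each of the 8 members in total mRNA and in footprints, with 95% confidence intervals. Stmn2 lies at 8.12 and 7.73, Grn and Rac1 lie below 0 in both library types, and Unc13a has a higher value in footprints (1.84) than in total mRNA (1.15).

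Levels divided by exon length allow the members to be ordered against each other. For Rac1 that length includes the 51.4% of exon bases that overlap Daglb, where reads cannot be told apart, so its place is uncertain. In MN1 total mRNA Rac1 (66.1 CPM per kilobase), Grn (46.1) and Map1b (43.7) were highest, and the ranges of neighbours in this order overlapped. Unc13a (17.5) stood between these and the overlapping group of Sort1 (8.42), Hdac6 (8.07) and Atg7 (5.56), and Stmn2 (0.608) was lowest. In neuron total mRNA the order became Map1b (184), Stmn2 (163), Sort1 (49.9), Rac1 (47.0), Unc13a (41.3), Grn (27.7), Hdac6 (13.4) and Atg7 (7.64 CPM per kilobase). Map1b and Stmn2 overlapped, and Sort1, Rac1, Unc13a and Grn formed a chain in which each overlapped the next. Stmn2 thus moved from a level at or above 50.1% of 21578 coding genes in MN1 cells to 99% in neurons, while Atg7 stayed at 69.8% and 71.5%. Per kilobase of exon, neuron footprints were highest for Map1b (321) and Stmn2 (257) and lowest for Atg7 (6.93).

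Genes related to the members by family or pathway were counted in 8 lists of 55 genes. In the genotype comparisons 0 of them were called by edgeR without the block. In total mRNA of neurons against MN1 cells, 53 were tested, 34 were higher and 11 lower, and in footprints 50 were tested, 37 were higher and 10 lower. Over all genes 42.6% were higher and 38.4% lower in total mRNA, and 42.7% and 39.9% in footprints. The stathmins, microtubule regulators like Stmn2, were higher in 3 of 3 (Stmn1 1.05, Stmn3 1.78 and Stmn4 7.65 on the log2 scale in total mRNA; median 1.78). The microtubule-associated proteins around Map1b were higher in 5 of 5 (Map1a 3.54, Map1s 0.27, Map2 6.90; median 3.54), as were 7 of 7 tested genes of the Munc13 family and release machinery (median 4.77). The Vps10 receptors and progranulin partners had 6 higher and 1 lower of 7 (median 6.90). Histone deacetylases were divided, with 4 higher and 3 lower of 10 (median 0.05). Hdac1 (-2.59) and Hdac2 (-1.37) were lower in neurons, and Hdac3 did not differ (-0.05, adjusted p = 0.773). In footprints Hdac1 (-2.11) and Hdac2 (-0.72) were again lower, whereas Hdac3 was higher (0.54, adjusted p = 0.00158). Autophagy conjugation genes had 6 higher and 2 lower of 11 (median 0.33), with Atg4b at 0.62 and Atg5 at -0.62. Other mRNAs linked to TDP-43 had 2 higher and 2 lower of 6 (median 0.04), with Gria1 at 9.74 and Poldip3 at -0.72.

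For footprints against total mRNA, 16 of 42 tested relatives were higher and 12 lower in MN1 cells, and 21 of 53 were higher and 9 lower in neurons. Over all genes 27.2% were higher and 30.2% lower in MN1 cells, and 26.6% and 27.3% in neurons. In neurons 6 of 7 Vps10 receptors and progranulin partners had more footprints than total mRNA (median 0.89), the list to which Sort1, at -0.30, is related. In translational efficiency between cell types, 8 of 54 were higher in neurons and 1 lower (5.94% and 2.13% of all genes), and of the 8 genes in the Munc13 list 1 was higher (median 0.56). With the replicate block, relatives were called in some genotype comparisons, given here beside the share called over all genes. With only 8 members, an absence of calls does not set them apart from the relatives. In MN1 footprints of A315T against GFP, 3 of 39 tested relatives were called, against 0.624% of all genes. These were Camta1 (2.31, adjusted p = 7.92e-07), Dennd4a (1.78, adjusted p = 6.85e-08) and Mid1ip1 (1.25, adjusted p = 2.12e-05). Against hTDP-43 these genes were also higher with A315T in MN1 footprints (Camta1 1.53, Dennd4a 1.75 and Mid1ip1 0.98), 3 of 35 tested against 0.706%. In neuron footprints of A315T against hTDP-43, Mid1ip1 was higher (1.66, adjusted p = 0.00205), 1 of 46 tested against 0.179%. Camta1 went the other way in MN1 total mRNA of hTDP-43 against GFP (-1.07, adjusted p = 5.87e-05), 1 of 41 tested against 0.472%. In MN1 total mRNA Dennd4a was higher with A315T than with hTDP-43 (0.74, adjusted p = 0.00589), 1 of 41 tested against 0.754%. Translational efficiency of A315T against GFP in MN1 cells was higher for Camta1 (2.06) and Dennd4a (1.28), 2 of 42 tested against 0.0198%. The A315T effect on footprints was lower in neurons than in MN1 cells for both (-2.10 and -2.11), 2 of 51 tested against 0.0736%. The study selected these 3 genes on these same samples, so their calls are not independent evidence. In MN1 total mRNA of A315T against GFP, 3 of 42 tested relatives were higher and 1 lower, where 2.73% of all genes were called. Map1a was higher by 0.48 (adjusted p = 0.0378), Poldip3 by 0.34 (adjusted p = 0.0422) and Dennd4a by 0.56, and Stmn1 had a log2 fold change of -0.33 (adjusted p = 0.0485). Map1b and Stmn2, in the same families as Map1a and Stmn1, were not called there.

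As a description, the genes whose total mRNA pattern was most like each member were found by Pearson's r of log2 CPM over the 14 cultures among 12409 genes. The points share their cell type, and for members that differ strongly between neurons and MN1 cells a large share of the genes follows the same split. Stmn2 was most like Csdc2 (r = 0.998), Sort1 like Nmnat2 (r = 0.997), Map1b like Med13l (r = 0.996) and Unc13a like Slc37a3 (r = 0.993), and each of these members had 2824 to 3394 genes at r over 0.9. Rac1 was most like Rpl36a (r = 0.963) and Hdac6 like Klhdc8b (r = 0.961), with 471 and 147 such genes. Grn had 13, led by Nelfe (r = 0.941) and Ifitm3. Atg7 had 0, and its closest gene was Rhot2 (r = 0.90).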

How the data were processed

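The files hold raw counts of reads per gene, which the authors made by clipping adapters (cutadapt 1.8.1), removing reads aligned to non-coding RNAs (Bowtie2), aligning to GRCm38 (TopHat2) and counting exons of Ensembl 80 genes with featureCounts 1.4.4. These deposited counts had no scaling applied and keep replicates separate, and all 28 libraries were used. Symbols and gene structure came from GENCODE M21, and TG runs were searched on the coding strand of GRCm38.

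Genes were filtered by filterByExpr (minimum count 10, minimum total 15), scaled by TMM and tested over all genes in 25 comparisons with the quasi-likelihood test of edgeR 4.0.16 (R 4.3.3), with Benjamini-Hochberg adjustment at 0.05. The study used DESeq. Intervals are at 95%, from the model's standard error, and cover the spread between these cultures. DESeq2 1.42.0, its size factors, no filter, a replicate block, control cultures alone and each culture left out were the alternatives. The block was the culture date, or the culture where footprints were compared with total mRNA. Leaving out the 3 cultures that stood apart was added after seeing the data. The fitting was tested on simulated counts.

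Replicate numbers mark a culture date in the labels, except that the GFP footprint library of replicate 1 carries the same day and month with a later year. It was assumed to share the date of its replicate, and the block in MN1 footprints rests on that. Deviations of same-numbered libraries correlated at 0.336 (MN1 footprints), 0.442 (MN1 total mRNA), 0.120 (neuron footprints) and 0.171 (neuron total mRNA) on average. Cultures of 1 date differ in genotype or plasmid. Where cultures of a group on different dates are not stated to come from separate animals, the p-values measure only the spread between these samples, which may be technical. A floor of 3 counts covers counting error only.

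All 8 members are named in every comparison, Tardbp as the counterpart of the added gene, and relatives by counts, with those called in a genotype comparison and at most 3 per list in the order of the list. The counts of 1 list are not reported here on their own. The 3 genes with the highest r were taken as most like a member, and the first or first and second are named. Members and lists were chosen with earlier results of these data known.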

Additional observations from a re-analysis of the deposited data

Results flagged for a closer look

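In MN1 total mRNA, Hdac6 measured 33.4 CPM in GFP replicate 1, far below the other 5 MN1 cultures (48.0 to 51.8 CPM). The log2 ratio of footprints to total mRNA of Stmn2 was 1.26 in wild-type neuron replicate 3, far above the other 7 neuron cultures. Total mRNA of that culture is 1 of the Lars2-rich libraries, and its Stmn2 total mRNA (673 CPM) was the lowest of the 8 neuron cultures. The part of that library in the ratio was not tested. These came from 48 sets of 6 or 8 values, and chance gives such an outlying value in about 5% of sets. Between the cell types, the footprint to total mRNA relation of Unc13a differed, by 0.80 on the log2 scale in the test of the difference itself (adjusted p = 0.00381). It was higher in all 8 neuron cultures than in all 6 MN1 cultures.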

How the results depend on the processing

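No alternative gave a call for a member in a genotype comparison except A315T against wild type in neuron total mRNA, where leaving out single cultures gave 0 to 2 calls. Neurons against MN1 total mRNA called 4 members with the control cultures alone, against 8 in all cultures, while the share over all genes went from 81.0% to 53.5%. Footprints against total mRNA in neurons called 3 to 6 members, and translational efficiency between the cell types 0 to 1, on leaving out single cultures. The replicate block gave calls for Stmn2 in MN1 footprints against total mRNA (adjusted p = 0.0261) and for Sort1 in neurons (adjusted p = 0.0488), and changed no other call of a member. In both comparisons the block was the culture. With the block of culture date, A315T against wild type in neuron total mRNA turned direction for Hdac6 (0.046) and Sort1 (-0.0634), neither of which passed. Neuron footprints against MN1 turned for Atg7 to -0.0147 with DESeq2 and -0.0207 with its size factors. Translational efficiency between cell types turned for Hdac6 (-0.0101 and -0.0122) and Grn (-0.11 and -0.10) with DESeq2 and its size factors, for Sort1 with no filter (0.0497) and without the 3 cultures apart (0.15), and for Map1b without those cultures (0.30). None of these was called in any of these settings, and the cause was not tested.

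Leaving out 1 culture at a time also turned uncalled log2 fold changes. For A315T against GFP in MN1 footprints they ranged from -0.19 to 0.12 for Atg7, -0.0313 to 0.29 for Grn, -0.13 to 0.19 for Hdac6, -0.0079 to 0.14 for Rac1, -0.50 to 0.39 for Sort1, -2.26 to 0.97 for Stmn2 and -0.33 to 0.11 for Unc13a. In MN1 total mRNA they ranged from -0.29 to 0.34 for Grn, -0.0469 to 0.48 for Hdac6, -0.26 to 0.11 for Map1b, -4.03 to 0.40 for Stmn2 and -0.0063 to 0.0587 for Unc13a. For A315T against wild type in neuron footprints the ranges were -0.17 to 0.0381 for Grn, -0.44 to 0.24 for Hdac6 and -0.035 to 0.43 for Sort1. In neuron total mRNA they were -0.22 to 0.0828 for Hdac6, -0.83 to 0.27 for Map1b, -0.22 to 0.47 for Rac1, -0.0653 to 0.13 for Sort1, -0.31 to 0.52 for Stmn2 and -0.0073 to 0.20 for Unc13a. For translational efficiency between cell types they were -0.0126 to 0.29 for Grn, -0.0021 to 0.37 for Hdac6, -0.40 to 0.15 for Map1b, -0.18 to 0.11 for Sort1 and -0.89 to 0.31 for Stmn2. Without the 3 cultures apart, hTDP-43 against wild type in neurons could not be fitted, since 1 culture was left in each group. Shallow footprint libraries limit Hdac6 and Atg7 (7 reads at the lowest) and Stmn2 in MN1 cells.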
